A study of Rattus norvegicus with 7 samples.

Results

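The genes described here had a lower signal in rat lenses cultured with galactose than in lenses cultured without it. A probe was taken when it carried exactly 1 gene symbol and a log2 signal above 5 in at least 1 array, when its Galactose mean was at least 1 below its Control mean on the log2 scale (2-fold), and when every Galactose array lay below both Control arrays. Of the 5129 probes with 1 gene and a signal above 5 (36685 probes in all), 83 met this rule. The 8 genes Slc5a3, Slc6a6, Slc38a2, Nfat5, Aqp1, Foxe3, Pdgfra and Inhba were set aside, which left 75 probes for 75 genes. Since these genes were chosen by their Galactose and Control values, the difference between those groups is given as a description and is not tested as a finding.

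Lenses came from male, 6-week-old Sprague Dawley rats and were cultured in M199 medium, and RNA of each lens sample was hybridised to 1 GeneChip Rat Gene 2.0 ST array. The Glutamate group held 2 arrays of lenses cultured for 6 days with 30 mM galactose, to which 20 mM glutamate was added for the later part of the culture. The Galactose group held 3 arrays of lenses cultured for 6 days with 30 mM galactose. The Control group held 1 lens culture of 4 days (Control Day 4) and 1 of 6 days (Control Day 6), both with sterile water in place of galactose, so that the spread within Control contains the difference in culture time and the 2 cannot be told apart. The labels do not say which lenses came from separate animals, and each SD and p-value therefore measures the spread between these samples. In RNA of a whole lens, fewer cells of a type and less RNA per cell cannot be told apart.

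The values are log2 signals normalized over all arrays, and they are given for each gene in the order Glutamate 1 and 2, Galactose 1 to 3, Control Day 4 and Day 6. The Control arrays correlated at r = 0.80 across the 5320 probes with a gene and a signal above 5, and 28.6% of these probes differed at least 2-fold between them. Array pairs within Galactose or within Glutamate correlated at 0.93 to 0.98, across genes that are not independent replicates. Lens markers were present in every array, with a log2 summed signal of 13.9 in both Glutamate arrays for the fibre list, against 13.7 to 13.8 in Galactose and 13.8 and 13.9 in Control. For the epithelium list the sums were 13.16 and 13.10 in Glutamate, 13.06, 13.12 and 13.03 in Galactose, and 13.26 and 12.82 in Control. Such sums mainly follow the strongest markers. No marker of the iris and ciliary body (6 with a probe), of the retina (6) or of vessels and erythrocytes (1) exceeded a signal of 5. Of the 6 leukocyte markers 1 did: Cd68, a macrophage marker, had signals of 4.73 and 5.16 in the Glutamate arrays, 4.52, 4.96 and 4.45 in the Galactose arrays, against 3.85 and 3.51 in the Control arrays. Ptprc and Itgam, defining leukocyte genes, were at most 1.85 in every array, and Cd74 and C1qa at most 3.63 and 3.68. Lyz2 had signals of 3.765 and 2.56 in the Glutamate arrays, 2.98, 4.11 and 3.56 in the Galactose arrays, against 4.80 and 2.25 in the Control arrays. The log2 summed signal of the list was 6.04 and 6.07 in Glutamate, 5.76 to 6.31 in Galactose and 6.06 and 5.399 in Control. The part of such cells in the results was not tested. The deposited values repeat: 15 of the 75 genes had exactly the same value in at least 2 arrays (20.0%, against 38.1% of all 5129 probes), and 6 of them, Mex3b, Ptpre, Srebf1, Lifr, St3gal5 and Sh3bp4, had the same value in both Glutamate arrays. An SD of 0 in such a gene is not a measure of precision.

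The lens grows throughout life by turning epithelial cells at its equator into long fibre cells that fill up with crystallins and lose their organelles. Fibre cells have no blood supply, and connexin gap junctions, adhesion molecules, ion exchangers and a membrane rich in sphingolipids keep the tissue connected and clear. In the galactose model of sugar cataract, aldose reductase turns galactose into galactitol, which stays inside the cell and draws in water. The enzymes, junction proteins and regulators of lens fibre formation named below are known parts of this tissue, and this background is not a result of the arrays.

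The 75 genes had a median log2 signal of 5.55 and 5.06 in the Glutamate arrays, of 4.66, 4.75 and 4.83 in the Galactose arrays, and of 6.12 and 6.04 in the Control arrays. The same medians over all 5129 probes were 5.65 and 5.54 in the Glutamate arrays, 5.67, 5.71 and 5.75 in the Galactose arrays, against 5.76 and 5.36 in the Control arrays. Their median was thus lowest in the Galactose arrays and intermediate in the Glutamate arrays, with Glutamate 1 above Glutamate 2. Galactose minus Control ran from -3.53, in Cyp2b1, to -1.004 with a median of -1.19, where all 5129 probes had a median of 0.16. The rule took 1.62% of the probes, and 28 of the 75 genes had a signal above 5 in Control arrays alone. These 28 passed the signal filter only through the group where they were high, and the share over all probes was not counted. They were Bcl2, Bcl6, Cavin2, Cyp2b1, Flrt2, Fzd2, Irs1, Kcnh1, Lifr, Lrp4, Mamdc2, Mex3b, Nhs and Nipal3. The rest were Perp, Pitpnc1, Ptpre, Ric8b, Sh3bp4, Slc12a2, Slc38a4, St3gal5, Tead2, Trabd2b, Ugcg, Utrn, Zbtb18 and Zfp334.

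**Figure D1:**
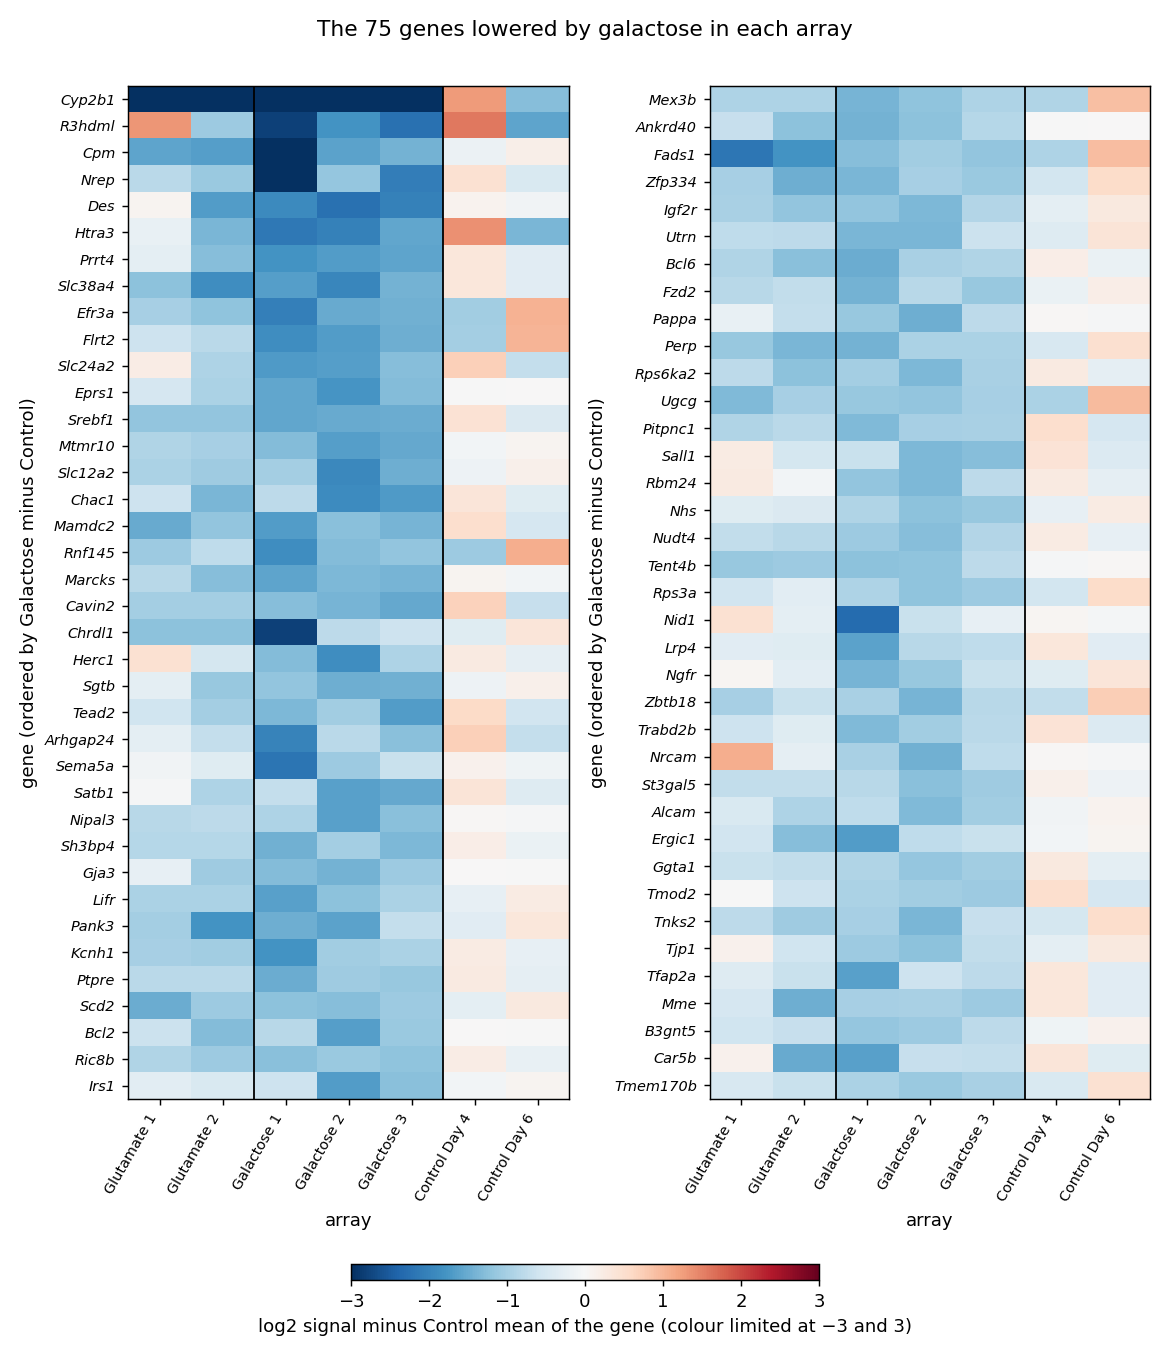
Log2 signal of each of the 75 genes in each of the 7 arrays, minus the Control mean of the gene, with genes ordered by Galactose minus Control and colours limited at −3 and 3. The Galactose values lie below 0 throughout, the Glutamate values are nearer to 0 in part of the genes, and the Control columns differ most in R3hdml, Htra3, Cyp2b1 and Rnf145.

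The Galactose arrays were cultured as long as Control Day 6. Against that array alone the Galactose mean was at least 2-fold lower in 51 of the 75 genes, against Control Day 4 alone in 52, and against each of them in 28. The rule uses the mean of both Control arrays, so each gene lay at least 2-fold below 1 or both of them. These counts are thus descriptions, and the same shares over all probes were not counted. Those 28 genes include Cyp2b1, Cpm, Nrep, Des, Slc38a4, Eprs1, Srebf1, Slc12a2, Gja3, Irs1, Nid1 and Nrcam. Control Day 6 was below Control Day 4 in 42 genes and above it in 33. The Control arrays were at least 2-fold apart in 20 genes (26.7%, against 28.2% of all 5129 probes). In 10 of these Control Day 6 was the higher array (Efr3a, Flrt2, Rnf145, Mex3b, Fads1, Zfp334, Ugcg, Rps3a, Zbtb18 and Tnks2) and in 10 it was the lower (Cyp2b1, R3hdml, Htra3, Slc24a2, Mamdc2, Cavin2, Tead2, Arhgap24, Pitpnc1 and Tmod2). The distance between the highest Galactose array and the lower Control array ran from -1.995 for Cyp2b1, -1.80 for Des and -1.31 for Eprs1 to -0.04 for Mex3b. Among the Galactose arrays the lowest value stood in Galactose 1 for 38 genes, in Galactose 2 for 32 and in Galactose 3 for 5, and Galactose 1 was at least 1 below the mean of the other two in Cpm, Nrep, Chrdl1, Sema5a and Nid1. Lens epithelium markers outside the 75 were also low in Galactose 1. In order of the Galactose arrays, Pax6 had signals of 6.39, 7.52 and 7.49, and Cdh1 6.97, 8.30 and 8.495. Gja1 had 5.65, 7.79 and 7.405, and Foxe3 4.065, 4.89 and 4.89, while Cryab had 13.01, 13 and 12.9. The part of epithelial cells in this was not tested.

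**Figure D2:**
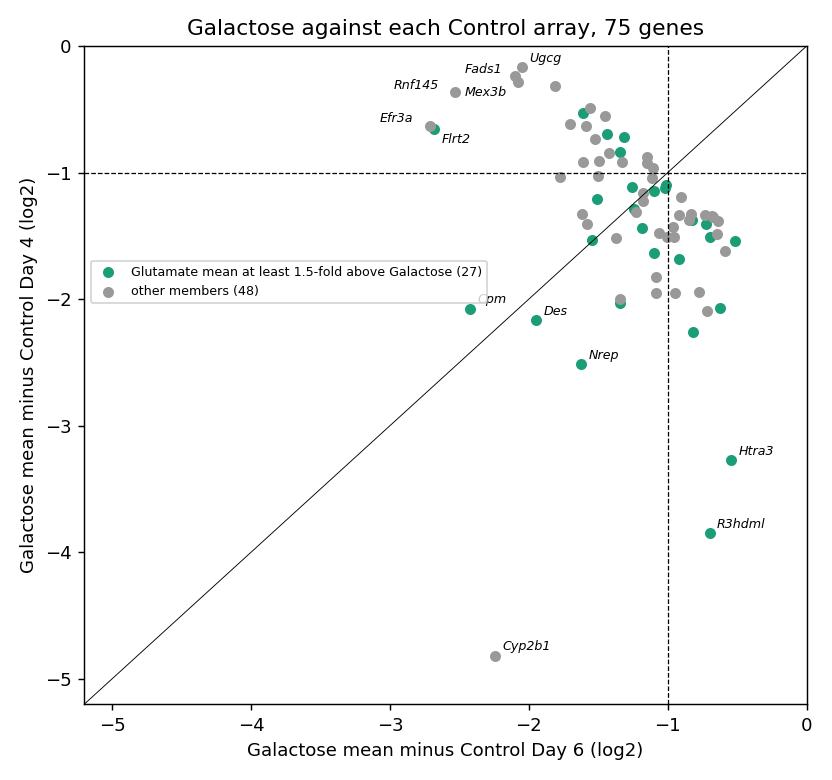
Galactose mean minus Control Day 6 (horizontal, log2) and minus Control Day 4 (vertical, log2) for the 75 genes, with dashed lines at −1 and a diagonal where both differences are equal. The 28 genes left of and below both lines were at least 2-fold lower than each Control array, and green points mark the 27 genes whose Glutamate mean was at least 1.5-fold above Galactose.

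In limma, fitted over 5320 probes with the Benjamini-Hochberg adjustment, 0 of the 75 genes passed an adjusted p of 0.05 for Galactose against Control, where 0.0376% of all probes passed as lower (2 probes, Slc5a3 and Slc6a6, which the rule sets aside). The smallest adjusted p among the 75 was 0.0633, for Mtmr10. The unadjusted p was under 0.05 for 69 of the 75, against 5.23% of all probes in this direction, a count that the rule itself sets. With 1 Control array left out, 39 of 65 members in the fit were called without Control Day 4, where 33.4% of all probes were called, and 3 of 69 without Control Day 6, where 0.155% were. Each of these fits holds 1 Control array, whose spread is assumed to be like that of the other groups. The counts and shares in these fits cover either direction, unlike the shares of the main fit above, which cover lower signals only.

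A gene is counted here as recovering when its Glutamate mean was at least 1.5-fold above its Galactose mean, and 27 of the 75 genes did so (36.0%, against 2.36% of all 5129 probes). The Galactose arrays helped to choose the genes, so this count and the differences from Galactose are descriptions. The recovering genes were R3hdml, Nrcam, Herc1, Des, Rbm24, Slc24a2, Nid1, Nrep, Htra3, Sema5a, Sall1, Flrt2, Ngfr, Prrt4, Arhgap24, Satb1, Eprs1, Irs1, Tjp1, Lrp4, Tmod2, Nhs, Pappa, Sgtb, Rps3a, Cpm and Gja3. Among them Flrt2, Irs1, Lrp4 and Nhs had a signal above 5 in Control arrays alone. The Glutamate mean was higher than the Galactose mean in 68 of the 75 (35.7% of all probes) and lower in Fads1, Perp, Pank3, Scd2, Zfp334, Ugcg and Tent4b. Both Glutamate arrays lay above every Galactose array in 43 genes (7.8% of all probes), among them 24 of the 27, the others being Cpm, Satb1 and Nid1. The median difference between Glutamate and Galactose was 0.42, against -0.11 over all probes. In limma 0 genes passed an adjusted p of 0.05 (0% of all probes were called as higher), the smallest adjusted p was 0.606, for Rbm24, and 14 genes were higher at an unadjusted p under 0.05 (1.13% of all probes).

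Glutamate 1 carried more of this difference than Glutamate 2. It was the higher Glutamate array in 56 of the 75 genes and in 26 of the 27 recovering ones, where 59.2% of all probes had the same order. R3hdml, Des, Htra3, Slc24a2, Nrcam and Car5b differed at least 2-fold between the Glutamate arrays, with Glutamate 1 higher in each. With Glutamate 2 alone 17 of the 27 stood at least 1.5-fold above the Galactose mean.

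**Figure D3:**
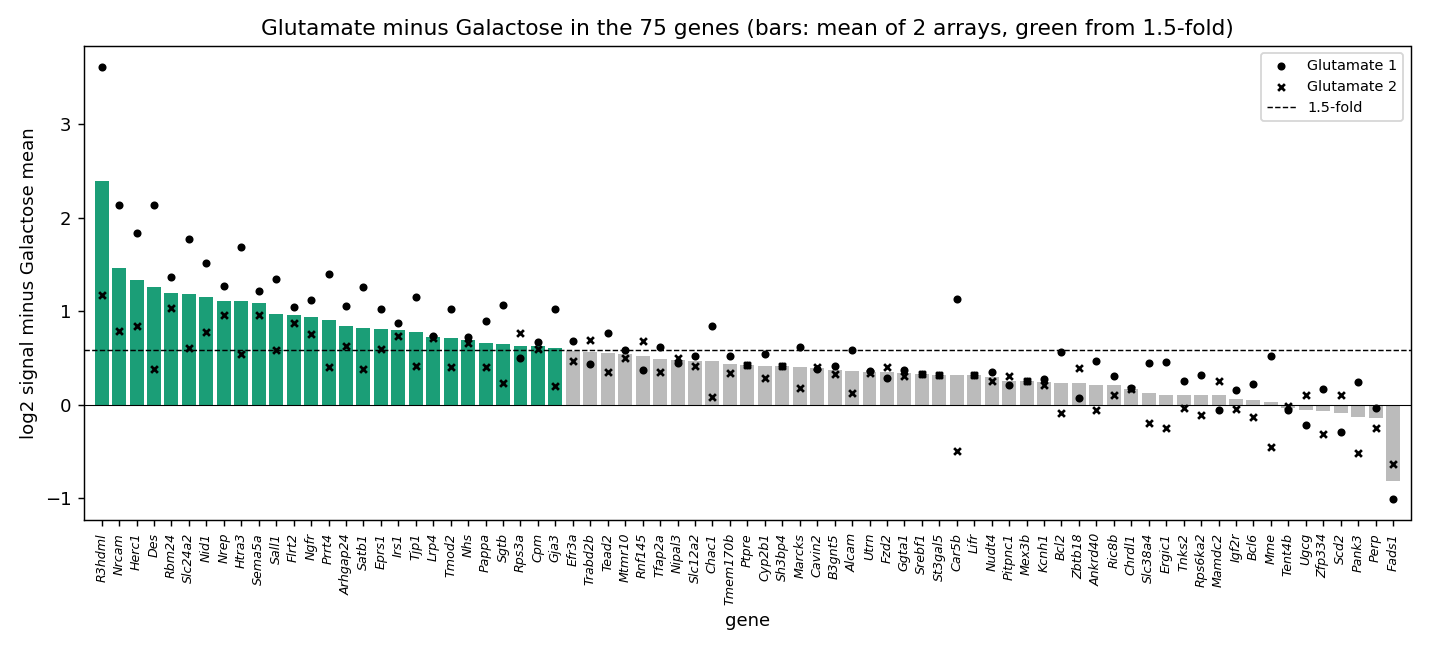
Glutamate minus the Galactose mean for each of the 75 genes (log2), as the mean of both Glutamate arrays (bars, green from 1.5-fold) and for Glutamate 1 (dots) and Glutamate 2 (crosses). The differences ran from 2.39 for R3hdml to -0.82 for Fads1, and the dot stands above the cross in 56 genes.

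Against Control, the Glutamate mean was within 1.5-fold in 21 of the 75 genes (80.9% of all 5129 probes), 1.5- to 2-fold lower in 33 and at least 2-fold lower in 21 (1.36% of all probes). Of the 27 recovering genes 18 were within 1.5-fold of Control, 8 were 1.5- to 2-fold below it, and 1, Cpm, was at least 2-fold below it. R3hdml, Rbm24, Nid1 and Nrcam were the 4 genes whose Glutamate mean exceeded the Control mean. Both Glutamate arrays lay below both Control arrays in 51 genes (15.2% of all probes), and in limma 34 had an unadjusted p under 0.05 in this direction (3.68% of all probes), with 0 past an adjusted p of 0.05 (0% of all probes). The median of Glutamate minus Control was -0.80, against 0.05 over all probes. The Control arrays took part in choosing the genes here too.

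The 75 genes were sorted by role, after their values had been seen, into 10 groups, which are given here with the number of members that recovered. Those numbers were 0 of 11 genes of lipid and glycolipid metabolism, with Mtmr10 (0.54) and Rnf145 (0.52) just under the threshold, 4 of 5 lens genes, 5 of 8 genes of junctions, adhesion and matrix, 3 of 7 cytoskeletal genes, 4 of 13 genes of growth factor, Wnt, BMP and cytokine signalling, 1 of 5 transporters and channels, 3 of 4 secreted or cell surface peptidases and relatives, 1 of 5 other transcription factors, 4 of 7 genes of RNA, translation and protein turnover, and 2 of 10 others. These counts describe groups made by hand and were not tested.

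Promoters are shown for Gja3, a lens gene that recovered, and for Scd2 and Fads1, lipid genes that did not, so that the sequence next to each start can be read beside the values. They are the 250 bases before the gene start in RefSeq (rat build GRCr8), with letters of the motifs searched in capitals: CCAAT (the NF-Y box) and GGGCGG (the GC box) on either strand. Scd2 lies at chr1:253118127-253118376 on the plus strand, Fads1 at chr1:216252442-216252691 on the plus strand and Gja3 at chr15:35322406-35322655 on the minus strand.
Scd2: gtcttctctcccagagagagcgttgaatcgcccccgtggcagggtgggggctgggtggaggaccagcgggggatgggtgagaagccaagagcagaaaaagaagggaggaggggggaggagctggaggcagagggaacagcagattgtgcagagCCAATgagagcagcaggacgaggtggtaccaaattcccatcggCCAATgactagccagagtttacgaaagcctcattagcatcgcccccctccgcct
Fads1: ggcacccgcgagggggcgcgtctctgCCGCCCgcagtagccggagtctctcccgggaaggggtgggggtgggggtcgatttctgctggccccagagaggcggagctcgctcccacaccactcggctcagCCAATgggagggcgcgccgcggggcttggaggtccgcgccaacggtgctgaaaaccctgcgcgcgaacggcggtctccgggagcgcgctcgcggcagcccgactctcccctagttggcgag
Gja3: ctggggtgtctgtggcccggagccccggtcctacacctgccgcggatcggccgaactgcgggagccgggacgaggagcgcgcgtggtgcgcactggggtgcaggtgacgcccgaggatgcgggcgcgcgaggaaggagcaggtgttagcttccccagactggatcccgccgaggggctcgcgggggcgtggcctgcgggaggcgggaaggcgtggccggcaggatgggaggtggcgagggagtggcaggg

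The Scd2 window holds CCAAT starting at positions -97 and -54 from the gene start, the Fads1 window holds CCAAT at -121 and GGGCGG on the reverse strand at -224, and the Gja3 window holds none of the letters searched. Of the 75 genes 60 had a promoter in the RefSeq table. CCAAT stood in 31.7% of these 60 promoters, against 35.9% of 4244 promoters of genes above the signal minimum and 34.3% of all 27456 promoters. GGGCGG stood in 65.0%, 63.2% and 32.4% of the same sets, and the median GC content was 65.4%, 61.2% and 52.0%. TGGAAA, the core of sites of the NFAT family, stood in 18.3% of the 60 promoters (13.3% and 19.5%), TGANTCA (AP-1) in 5.0% (4.55% and 6.36%), CACGTG (an E-box) in 5.0% (9.17% and 5.79%), TGACGT (the core of ATF and CREB sites) in 6.67% (12.9% and 7.25%), TGTTTAC (forkhead) in 1.67% (1.84% and 3.25%) and TATAAA in 1.67% (6.57% and 13.1%). Both strands were searched for each motif. No test was made of these shares. The genes lay on 19 chromosomes, with at most 14 on one.

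Among the members 5 are tied to the lens or to eye development, and they were chosen for that role after their values were seen, apart from Gja3, Rbm24, Sall1 and Tfap2a, which the naming rule takes. Gja3, a connexin, forms the gap junctions between lens fibre cells and is mutated in human inherited cataract. Its log2 signal was 8.45 and 7.62 in the Glutamate arrays, 7.40, 7.29 and 7.61 in the Galactose arrays, against 8.71 and 8.67 in the Control arrays. All Galactose arrays were at least 1 below both Control arrays, while Glutamate 1 came near Control and Glutamate 2 stayed at the level of the highest Galactose array. Gja3 averaged 8.04 ± 0.58 in Glutamate (SD, n = 2), 7.43 ± 0.16 in Galactose (SD, n = 3) and 8.69 ± 0.03 in Control (SD, n = 2), and its difference of 0.61 between Glutamate and Galactose is the smallest among the 27 recovering genes.

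Rbm24, an RNA-binding protein that eye development depends on in mouse and zebrafish, had signals of 7.22 and 6.89 in the Glutamate arrays, 5.79, 5.61 and 6.18 in the Galactose arrays, against 7.24 and 6.69 in the Control arrays. The Glutamate arrays fell inside the range of the Control arrays, and all Galactose arrays were below both groups. Its Glutamate mean was 1.20 above Galactose (standard error 0.27, adjusted p = 0.606 in limma) and 0.10 above Control. Sall1, a zinc finger transcription factor of organ development, had signals of 6.35 and 5.59 in the Glutamate arrays, 5.44, 4.76 and 4.83 in the Galactose arrays, against 6.52 and 5.70 in the Control arrays. Nhs, the gene of Nance-Horan syndrome, in which human patients have congenital cataract, had signals of 4.95 and 4.90 in the Glutamate arrays, 4.42, 4.10 and 4.19 in the Galactose arrays, against 5.07 and 5.58 in the Control arrays. Both genes had Glutamate arrays above every Galactose array and within or below the range of Control. Tfap2a, the transcription factor AP-2 alpha, which lens formation needs in mouse, did not recover by the rule: it had signals of 5.98 and 5.71 in the Glutamate arrays, 4.75, 5.75 and 5.58 in the Galactose arrays, against 6.70 and 6.05 in the Control arrays.

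**Figure D4:**
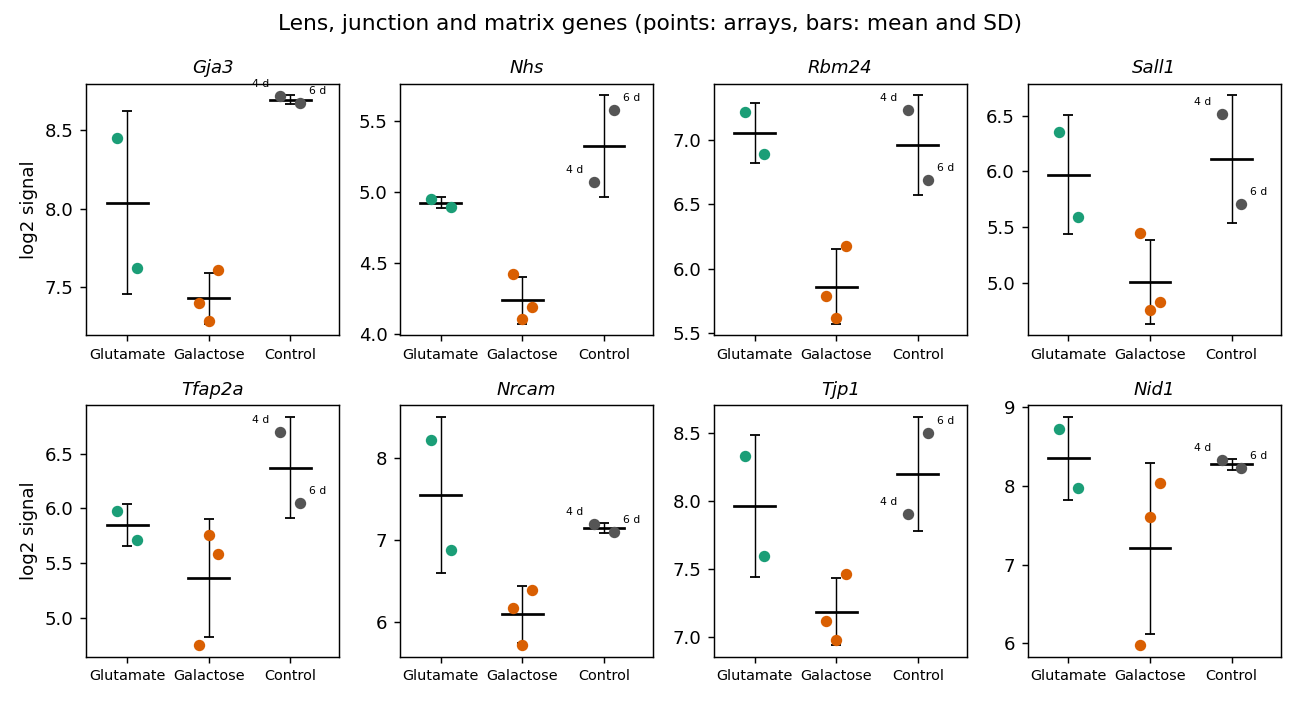
Log2 signals of Gja3, Nhs, Rbm24, Sall1, Tfap2a, Nrcam, Tjp1 and Nid1 in the single arrays (points) of the Glutamate, Galactose and Control groups, with the mean (line) and SD (bar), and with the Control cultures of 4 and 6 days labelled. The vertical axes do not start at 0 and differ between panels. The Galactose points lie below both Control points in each gene, and Rbm24, Nrcam and Nid1 have Glutamate means above the Control mean.

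Among the 8 genes of junctions, adhesion and matrix, the members that recovered were the adhesion, guidance and matrix proteins Nrcam, Nid1, Sema5a and Flrt2 and the tight junction protein Tjp1. Nrcam, an immunoglobulin-type adhesion molecule whose loss disturbs the lens in mouse, had signals of 8.23 and 6.88 in the Glutamate arrays, 6.17, 5.71 and 6.39 in the Galactose arrays, against 7.19 and 7.10 in the Control arrays. Glutamate 1 exceeded every other array and Glutamate 2 was just under Control. Tjp1 (ZO-1), which anchors junctions to actin, had signals of 8.33 and 7.60 in the Glutamate arrays, 7.12, 6.98 and 7.46 in the Galactose arrays, against 7.91 and 8.50 in the Control arrays. Nid1, nidogen 1, links laminin and collagen IV in basement membranes such as the lens capsule. Its signals were 8.73 and 7.98 in the Glutamate arrays, 5.97, 7.61 and 8.03 in the Galactose arrays, against 8.33 and 8.23 in the Control arrays, so that Galactose 1 alone was far below the rest and Glutamate 2 was below Galactose 3.

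Sema5a, a semaphorin, had signals of 6.62 and 6.37 in the Glutamate arrays, 4.53, 5.64 and 6.06 in the Galactose arrays, against 6.85 and 6.60 in the Control arrays. Flrt2, a fibronectin leucine-rich membrane protein, had signals of 4.46 and 4.27 in the Glutamate arrays, 3.21, 3.39 and 3.61 in the Galactose arrays, against 4.06 and 6.09 in the Control arrays, where its Glutamate arrays exceeded Control Day 4. Perp, a desmosome component, had no higher level with glutamate: 4.76 and 4.54 in the Glutamate arrays, 4.48, 4.95 and 4.95 in the Galactose arrays, against 5.43 and 6.38 in the Control arrays. Alcam and Mamdc2 did not recover either, with Glutamate 0.36 and 0.10 above Galactose.

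In the 11 genes of lipid and glycolipid metabolism Glutamate minus Control ran from -1.99 to -0.65, and Galactose minus Control ran from -1.52 to -1.01. Srebf1, the transcription factor that drives fatty acid synthesis genes, had a signal of 5.55 in both Glutamate arrays, 5.18, 5.23 and 5.26 in the Galactose arrays, against 7.18 and 6.31 in the Control arrays. Scd2, a stearoyl-CoA desaturase that makes monounsaturated fatty acids, had signals of 8.07 and 8.47 in the Glutamate arrays, 8.34, 8.28 and 8.47 in the Galactose arrays, against 9.27 and 9.86 in the Control arrays. Both genes had every Glutamate and Galactose array below Control, with Glutamate 0.33 above Galactose in Srebf1 and overlapping it in Scd2. Scd2 has close relatives whose transcripts may bind the same probe, so its values may include theirs.

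Fads1, the delta-5 desaturase of polyunsaturated fatty acids, was the gene with the lowest Glutamate value relative to Galactose. Its signals were 4.88 and 5.25 in the Glutamate arrays, 5.77, 6.01 and 5.87 in the Galactose arrays, against 6.12 and 7.98 in the Control arrays. Both Glutamate arrays were below every Galactose array, with a difference of -0.82 between the means (standard error 0.50, adjusted p = 0.914 in limma), and the Galactose arrays were close under Control Day 4 and far under Control Day 6. Ugcg, which makes glucosylceramide, the first step of most glycosphingolipids, had signals of 4.42 and 4.74 in the Glutamate arrays, 4.62, 4.56 and 4.74 in the Galactose arrays, against 4.81 and 6.68 in the Control arrays. Its distance from Control thus came mostly from Control Day 6, as did that of Rnf145, a ubiquitin ligase of the endoplasmic reticulum, with 6.77 and 7.08 in the Glutamate arrays, 5.97, 6.55 and 6.67 in the Galactose arrays, against 6.77 and 8.93 in the Control arrays.

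Other glycosyltransferases of this group, chosen for their role after their values were seen apart from B3gnt5, had Control arrays closer together. B3gnt5, which starts the lacto-series chains, had signals of 9.998 and 9.91 in the Glutamate arrays, 9.43, 9.52 and 9.81 in the Galactose arrays, against 10.46 and 10.74 in the Control arrays. St3gal5, which makes the ganglioside GM3, had 4.46 in both Glutamate arrays, 4.35, 3.93 and 4.13 in the Galactose arrays, against 5.34 and 5.04 in the Control arrays. Ggta1, an alpha-1,3-galactosyltransferase, had 5.27 and 5.21 in the Glutamate arrays, 5.05, 4.78 and 4.89 in the Galactose arrays, against 6.24 and 5.64 in the Control arrays. In each of the 3 the Glutamate arrays lay above every Galactose array and below both Control arrays.

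Pank3, a pantothenate kinase of coenzyme A synthesis, had signals of 6.18 and 5.42 in the Glutamate arrays, 5.73, 5.59 and 6.49 in the Galactose arrays, against 6.85 and 7.55 in the Control arrays. Mtmr10, a member of the myotubularin family of phosphoinositide phosphatases, had 6.32 and 6.24 in the Glutamate arrays, 5.94, 5.57 and 5.69 in the Galactose arrays, against 7.14 and 7.32 in the Control arrays. Pank3 overlapped between Glutamate and Galactose and Mtmr10 did not, and neither reached Control. Pitpnc1, a phosphatidylinositol transfer protein, had Glutamate 0.25 above Galactose.

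**Figure D5:**
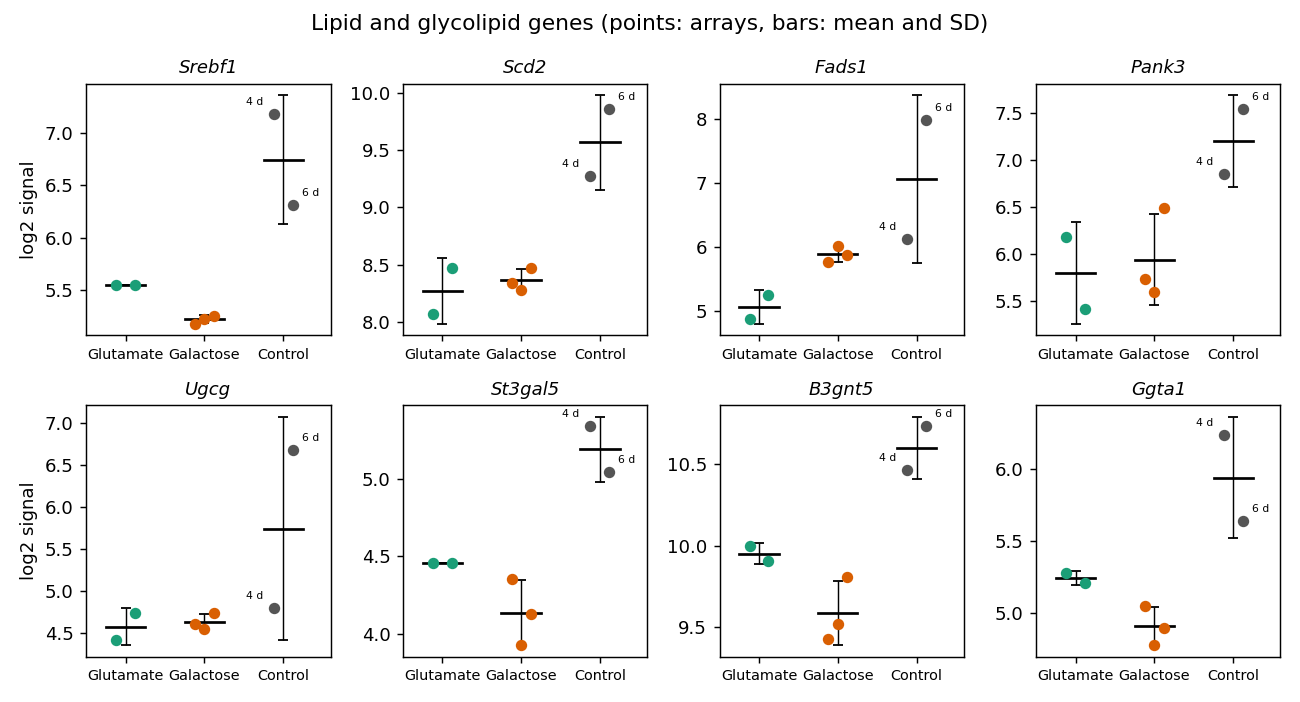
Log2 signals of Srebf1, Scd2, Fads1, Pank3, Ugcg, St3gal5, B3gnt5 and Ggta1 in the single arrays (points) of the Glutamate, Galactose and Control groups, with the mean (line) and SD (bar), and with the Control cultures of 4 and 6 days labelled. The vertical axes do not start at 0 and differ between panels. In each gene the Glutamate arrays lie below the Control mean, and in Fads1 and Ugcg the Control arrays are at least 2-fold apart.

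A list of 25 genes of sterol and fatty acid synthesis, of which 15 exceeded the signal minimum, set these genes beside the rest of the pathway. Srebf1, Scd2 and Fads1 were its members among the 75. The list's median of Galactose minus Control was 0.14, against 0.16 over all probes, with 6 of 15 means lower and 0 called in limma. Sqle and Msmo1, enzymes of the sterol branch, had Galactose means 1.40 and 0.87 above Control. Srebf2, the regulator of sterol synthesis, had a difference of 0.20, and Acly, which supplies acetyl-CoA, also 0.20. The median of Glutamate minus Galactose over the 15 was -0.21, and 1 of them, Srebf1, had a higher Glutamate mean.

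Of the 7 genes of the cytoskeleton and cell membrane scaffold, Des, Arhgap24 and Tmod2 recovered. Des, the intermediate filament protein desmin, had signals of 6.23 and 4.48 in the Glutamate arrays, 4.24, 3.93 and 4.12 in the Galactose arrays, against 6.26 and 6.04 in the Control arrays. Glutamate 1 was at the Control level and Glutamate 2 near the Galactose arrays. Desmin is best known from muscle: the other 7 genes of the fibroblast and smooth muscle list (Col1a1, Col1a2, Col3a1, Dcn, Lum, Pdgfrb and Myh11) had signals of at most 3.51 in the Glutamate arrays, 3.52 in the Galactose arrays and 3.79 in the Control arrays, none above the signal minimum. Tmod2, which caps actin filaments, and Arhgap24, which switches off Rac, had Glutamate means 0.71 and 0.84 above Galactose. Utrn, Marcks, Cavin2 and Sh3bp4 did not recover, with Glutamate 0.35 to 0.41 above Galactose and Glutamate minus Control from -1.05 to -0.78.

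In the 13 signalling genes Galactose minus Control ran from -1.67 to -1.07, and Irs1, Pappa, Lrp4 and Ngfr recovered. Irs1, which passes on the signal of the insulin and IGF1 receptors, had signals of 4.98 and 4.84 in the Glutamate arrays, 4.67, 3.61 and 4.04 in the Galactose arrays, against 5.22 and 5.37 in the Control arrays. Pappa, a protease that releases IGF from its binding proteins, had signals of 5.31 and 4.82 in the Glutamate arrays, 4.40, 4.08 and 4.76 in the Galactose arrays, against 5.56 and 5.51 in the Control arrays. Both thus had Glutamate arrays between the other groups, while Igf2r, which clears IGF2, had a Glutamate mean 0.06 above Galactose and a difference of -1.08 from Control. In the list of 22 insulin and FoxO genes Irs1 was the 1 member among 13 above the signal minimum, and the median of Galactose minus Control was -0.27 with 9 lower means and 0 called. Ngfr, the p75 neurotrophin receptor, had 6.00 and 5.63 in the Glutamate arrays, 4.56, 4.80 and 5.29 in the Galactose arrays, against 5.58 and 6.32 in the Control arrays, where Glutamate and Control overlapped.

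For the Wnt pathway, Fzd2, a receptor, had signals of 4.11 and 4.22 in the Glutamate arrays, 3.54, 4.11 and 3.82 in the Galactose arrays, against 4.74 and 5.15 in the Control arrays. Its relative Fzd4 and the Wnt antagonist Sfrp1 stood just outside the rule, at -0.99 each, as did Zfp91 at -0.997, and B3gnt5, Car5b and Tmem170b stood just inside it at -1.01, -1.01 and -1.004. Sfrp1 had a Glutamate mean 0.72 above Galactose, and Fzd4 had a difference of -0.18. Of the 12 genes of a Wnt list of 31 that exceeded the signal minimum, 11 had lower Galactose means (the share over all probes was not counted), with a median of -0.57 against 0.16 over all probes. In limma 6 had an unadjusted p under 0.05 as lower (5.23% of all probes) and 0 were called. These 6 include the member Fzd2 and, from just outside the rule, Fzd4 and Sfrp1. The list was written with earlier results of these data known, so its counts are descriptions. Lrp4 and Trabd2b, further Wnt regulators at the cell surface, had Glutamate means 0.73 and 0.57 above Galactose. Chrdl1, an extracellular BMP antagonist, had 6.65 and 6.64 in the Glutamate arrays, 5.08, 7.09 and 7.26 in the Galactose arrays, against 7.51 and 8.25 in the Control arrays, so that its low Galactose mean rested largely on Galactose 1. Lifr, the receptor of leukemia inhibitory factor, and Efr3a, which holds a phosphatidylinositol kinase at the membrane, had Glutamate means 0.32 and 0.57 above Galactose. Efr3a, Trabd2b and Tead2 were the genes just outside the recovery threshold, and Gja3, Cpm and Rps3a those just inside it.

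Of the 5 transporters and channels only Slc24a2 recovered by the rule. Slc12a2, the sodium, potassium and chloride cotransporter NKCC1, which brings salt into cells and takes part in volume regulation, had signals of 4.73 and 4.62 in the Glutamate arrays, 4.66, 3.75 and 4.23 in the Galactose arrays, against 5.54 and 5.83 in the Control arrays. Slc38a4, an amino acid transporter, had signals of 3.67 and 3.03 in the Glutamate arrays, 3.25, 2.94 and 3.49 in the Galactose arrays, against 5.23 and 4.57 in the Control arrays. Both had lower Glutamate than Control arrays, and in both the Glutamate and Galactose arrays overlapped. In Slc38a4 these values lie not far above the medians of all 36685 probes in those arrays (2.80 to 2.88), which limits what the overlap shows. Slc24a2, a sodium, calcium and potassium exchanger, had 5.39 and 4.22 in the Glutamate arrays, 3.45, 3.51 and 3.89 in the Galactose arrays, against 5.88 and 4.44 in the Control arrays. Among 74 solute carriers above the signal minimum the median of Galactose minus Control was 0.23 and 28 means were lower, and the 2 called as lower are Slc5a3 and Slc6a6. A further carrier, Slc16a6, was called as higher. The unadjusted p in limma was under 0.05 for 10 carriers as lower (5.23% of all probes). It was under 0.05 for 13 as higher, where the share over all probes was not counted. The 10 include the members Slc12a2, Slc24a2 and Slc38a4, and also Slc5a3, Slc6a6 and Slc38a2, which were set aside. Part of that count thus comes from the rule itself. Nipal3 and Kcnh1, a magnesium transporter relative and a potassium channel, had Glutamate means 0.47 and 0.24 above Galactose.

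The peptidases and their relatives held some of the largest differences and the widest spreads. R3hdml, a secreted protein of a peptidase inhibitor family, had signals of 7.49 and 5.06 in the Glutamate arrays, 3.37, 4.37 and 3.92 in the Galactose arrays, against 7.73 and 4.58 in the Control arrays. Htra3, a secreted serine protease, had signals of 5.23 and 4.09 in the Glutamate arrays, 3.32, 3.42 and 3.90 in the Galactose arrays, against 6.82 and 4.09 in the Control arrays. In both genes Control Day 6, the array matched in time, was close above the Galactose arrays, and the distance came from Control Day 4. Cpm, carboxypeptidase M, differed: it had 7.11 and 7.04 in the Glutamate arrays, 4.97, 7.09 and 7.29 in the Galactose arrays, against 8.52 and 8.87 in the Control arrays, with Galactose 2 and 3 at the level of the Glutamate arrays. Mme, neprilysin, had a Glutamate mean 0.03 above Galactose.

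Eprs1, the enzyme that joins glutamate and proline to their transfer RNAs, had signals of 7.94 and 7.51 in the Glutamate arrays, 6.91, 6.70 and 7.15 in the Galactose arrays, against 8.45 and 8.46 in the Control arrays. Its groups did not overlap, and Glutamate was 0.81 above Galactose (standard error 0.23, adjusted p = 0.701 in limma), with a difference of -0.73 from Control. Cyp2b1, a cytochrome P450, had signals of 2.58 and 2.33 in the Glutamate arrays, 2.30, 2.17 and 1.67 in the Galactose arrays, against 6.86 and 4.29 in the Control arrays. The Glutamate and Galactose values lie below the medians of all 36685 probes in those arrays (2.80 to 2.88), at the bottom of the scale, and no difference between them is read there. Its differences of -3.53 between the Galactose and Control means and of -1.995 between the nearest arrays are thus set against a probe at the bottom of the scale. Close relatives in the P450 family may share the probe. Mamdc2, Cavin2 and Tead2, among others, had Galactose signals near those medians too, at 3.02 to 3.45, 2.85 to 3.12 and 2.80 to 3.45. Their differences between Glutamate and Galactose carry the same limit.

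Other genes of RNA, translation and protein turnover that recovered were Herc1 and Sgtb, a ubiquitin ligase and a cochaperone, and Rps3a, a ribosomal protein whose processed copies in the genome make its probe uncertain. Herc1 had signals of 6.36 and 5.38 in the Glutamate arrays, 4.59, 4.03 and 4.97 in the Galactose arrays, against 6.17 and 5.63 in the Control arrays, and its Glutamate mean differed from Control by -0.03. Tnks2, a tankyrase, and Tent4b, a poly(A) polymerase, did not recover, with Glutamate minus Galactose at 0.10 and -0.04. Among transcription factors outside the lens group, Satb1, a chromatin organiser, recovered with 5.78 and 4.90 in the Glutamate arrays, 5.10, 4.18 and 4.27 in the Galactose arrays, against 6.20 and 5.44 in the Control arrays. Tead2, Bcl6, Zfp334 and Zbtb18 did not, with Glutamate minus Galactose from -0.07 to 0.55.

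Of the remaining genes, Nrep, a small neuronal regeneration protein, recovered with 8.11 and 7.81 in the Glutamate arrays, 5.93, 7.77 and 6.85 in the Galactose arrays, against 9.37 and 8.47 in the Control arrays. Prrt4, a proline-rich membrane protein, recovered with 5.44 and 4.44 in the Glutamate arrays, 3.94, 4.04 and 4.13 in the Galactose arrays, against 6.07 and 5.38 in the Control arrays. Chac1, which breaks down glutathione, had 6.83 and 6.07 in the Glutamate arrays, 6.66, 5.54 and 5.75 in the Galactose arrays, against 7.81 and 7.07 in the Control arrays, and its Glutamate mean was 0.46 above Galactose. Bcl2, which blocks apoptosis, had 4.49 and 3.84 in the Glutamate arrays, 4.30, 3.48 and 4.01 in the Galactose arrays, against 5.15 and 5.11 in the Control arrays. In Chac1 and Bcl2 the Glutamate and Galactose arrays overlapped, and both groups were below Control. Car5b, a mitochondrial carbonic anhydrase, had 5.27 and 3.64 in the Glutamate arrays, 3.52, 4.47 and 4.43 in the Galactose arrays, against 5.53 and 4.78 in the Control arrays, with Glutamate 1 above and Glutamate 2 below most Galactose arrays. The members not described so far did not recover: Glutamate minus Galactose was 0.42, 0.10 and 0.20 for the signalling proteins Ptpre, Rps6ka2 and Ric8b, 0.25 for the RNA-binding protein Mex3b, and 0.30, 0.11, 0.21 and 0.43 for Nudt4, Ergic1, Ankrd40 and Tmem170b.

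Lists of lens genes show what lay beside the members. Of the 5 lens fibre genes above the signal minimum Gja3 was the 1 member, Mip, the main water channel of fibre cells, had a Galactose minus Control of -0.70 and did not reach the rule, and Bfsp1, Lim2 and Crygs differed by -0.23, 0.08 and 0.15. The 5 lens epithelium genes above the minimum held no member. Foxe3, which was set aside, differed by -1.95, and Pax6, Cdh1, Gja1 and Cryab by 0.15, 0.12, 0.47 and 0.03. Of 13 lens transcription factors 10 had lower Galactose means (the share over all probes was not counted), with a median of -0.26 against 0.16 over all probes. In limma 4 had an unadjusted p under 0.05 as lower (5.23% of all probes) and 0 were called. These 4 include the member Tfap2a and also Foxe3 (-1.95), which met the rule and was set aside. Part of this count thus comes from the rule itself. Tfap2a was the list's member among the 75, and Mab21l1, Maf, Prox1 and Six3 had differences of -1.49, -0.86, -0.85 and -0.84 without meeting the rule. In the list of basement membrane and matrix genes, Nid1 was the 1 member of 14 above the signal minimum. The median of Galactose minus Control over the list was -0.19, and 7 of the 14 means were lower. Col4a3, Col4a4 and Lama1 differed by -0.76, -0.78 and -0.63, while Nid2, Tinagl1 and Timp2 differed by 0.89, 0.60 and 0.59. In the cell adhesion list, Tjp1 was the 1 member of 12, with a median of -0.06 over the list, and in the ion pump and channel list Slc12a2 was the 1 member of 9, with a median of -0.28. No gene of these lists passed an adjusted p of 0.05 in limma for Galactose against Control or for Glutamate against Galactose.

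The opposite rule, a Galactose mean at least 2-fold above Control with every Galactose array above both Control arrays, took 352 probes. In 191 of these (54.3%, against 9.87% of all 5129 probes) the Glutamate mean was at least 1.5-fold below Galactose, with a median difference of -0.66, while 27 of the 75 lower genes (36.0%, against 2.36% of all) had a Glutamate mean at least 1.5-fold above Galactose. The comparisons share their Galactose arrays, and the difference between these shares was not tested.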

How the data were processed

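The authors measured 7 lens samples on GeneChip arrays and processed them jointly by Robust Multi-array Average. The authors deposited log2 values, 1 for each probe and array, with no detection calls. Such arrays have no depth, and their number limits the precision. Probes were named from the platform annotation: 18511 have 1 gene, 575 have several and 17599 have none. The comparison of groups used limma 3.58.1 (R version 4.3.3) with 1 mean per group over all 7 arrays (Benjamini-Hochberg over the 5320 named probes above 5 in at least 1 array), and the rule and counts were computed with Python 3.11.15, numpy 2.4.6 and pandas 2.3.3. The members, gene lists and roles were chosen with earlier results of these data known. Named are the 12 genes with the largest difference from Control, the 12 with the largest and 6 with the lowest Glutamate minus Galactose, the 12 with the highest Control mean, all in a list, and those at the thresholds; other members were named for their role after their values were seen. Promoters came from RefSeq (GRCr8), and bases after the start were left out. Alternatives were other signal filters, thresholds, scalings and variance models, a replicate block and leaving out each array.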

Additional observations from a re-analysis of the deposited data

How the results depend on the processing

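The rule took 75 genes, 27 of them recovering. It took 48 genes with a signal minimum of 6, 156 (60 recovering) after a second quantile normalization, 127 (52 recovering) with each array centred on its median, 282 (53 recovering) at 1.5-fold and 10 (7 recovering) at 3-fold. A 2-fold recovery was met by 10. Of the 156 and 127 genes, 73 and 71 were among the 75, and these scalings moved the median of Galactose minus Control over all probes to 0.00 and 0.02, against 0.17 over the 5320 named probes. Leaving out 1 array gave 66 to 201 genes: 151 without Control Day 4 (47 of the 75 among them) and 201 without Control Day 6 (52 among them). The recovering genes then numbered 19 to 51, with 51 without Control Day 6, 49 without Galactose 3 and 19 without Glutamate 1.

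Genes called in limma for Galactose against Control numbered 0, but 3 after the quantile normalization, 12 after centring, and 0 to 39 when 1 array was left out (39 of 65 in the fit without Control Day 4, 3 of 69 without Control Day 6). For Glutamate against Control they numbered 0 to 18 (18 without Control Day 4, where 17.5% of all probes were called, and 1 without Control Day 6, where 0.0387% were; a lone Control array is assumed to vary like the other groups), and 0 for Glutamate against Galactose in every setting run. For Galactose against Control, 0.376% of all 5320 probes were called in either direction after the quantile normalization. The share was 0.846% after centring, against 0.094% in the main fit. The counts and shares given for fits without a Control array cover either direction too. The Galactose and Control arrays chose the genes, so the counts called in this comparison are descriptions. With the replicate number as a block, 0 genes were called for Glutamate against Galactose (smallest adjusted p 0.648). The median of Glutamate minus Galactose was then 0.47, against 0.42. The correlation of deviations was -0.03 and 0.06 for the 2 shared numbers, so the numbers are not shown to pair the samples. That median was 0.51 and 0.53 under the scalings and 0.35 to 0.52 when 1 array was left out.

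When 1 array was left out, Glutamate minus Galactose took both signs in 9 of the members taken by the naming rule (other members were not run): -0.50 to 1.13 in Car5b and -0.20 to 0.44 in Slc38a4 (lowest without Glutamate 1), -0.53 to 0.56 in Chrdl1 and -0.11 to 1.05 in Cpm (lowest without Galactose 1), -0.068 to 0.27 in Tnks2 (lowest without Galactose 2), -0.52 to 0.25 in Pank3 and -0.31 to 0.17 in Zfp334 (highest without Glutamate 2), and -0.30 to 0.11 in Scd2 and -0.21 to 0.10 in Ugcg (highest without Glutamate 1). It was also above 0 for Scd2 (0.19) and Ugcg (0.012) after the quantile normalization, and for Scd2 (0.021), Ugcg (0.059) and Zfp334 (0.043) after centring. The cause was not tested.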
